A study of Oryza sativa with 12 samples.

Results

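Cyclins and the kinases they activate drive the plant cell cycle, and 10 rice genes of this machinery were followed here in the abscission zone, the band of small cells between pedicel and spikelet where the grain detaches. The genes were chosen by locus ID as 4 B-type cyclins, the kinases CDKB2 and CDKB1, 3 A-type cyclins and PCNA, the DNA replication clamp. They are 10 of the 55986 IDs in the table that compares the mutant ossh1 with its wild type WT. In the table that compares the mutant oscct with its wild type CK, 2 of them, CDKB1 and PCNA, are among the 11688 distinct IDs listed. The classes came with the choice of the IDs: the deposited files give no gene names, and 0 of the 10 IDs matched the RefSeq table used here, so the classes could not be checked in these data.

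RNA from abscission zones collected at flowering was sequenced in 12 libraries, 3 for each of WT, ossh1, CK and oscct. Each library was a pool of 5 plants of one group, per the labels. WT and CK are labelled wild type and ossh1 and oscct mutant, and the treatment conditions were the same for all. The labels give neither the alleles nor the cultivars, and they place the field plots in Beijing or Sanya without tying libraries to a place, so line, place and mutation cannot be told apart. The study's title links OsCCT22, OsSh1 and OsCAD2 to lignin and seed shattering. The mutated genes and markers of the tissue are not named in the files and were not analysed here.

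A-type cyclins act from DNA replication to the start of mitosis, and B-type cyclins act at the entry into mitosis. CDKB kinases are particular to plants and algae, are most abundant around mitosis and pair with such cyclins. PCNA holds DNA polymerase on its template and is abundant during DNA replication. Transcripts of these genes are widely used as markers of dividing cells, and in whole tissue fewer dividing cells and less RNA per cell cannot be told apart.

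WT and ossh1 libraries held from 27044341 to 32055561 counts, and values are given as CPM, counts scaled to library size, after TMM scaling in edgeR, which sets the typical gene to no change. The genes had low counts, from 0 to 436 per library. In the ossh1 table low counts were mostly even: 80.4% of the values of 2 or 3 were 2, as arises when both mates of a read pair are counted. Independent fragments behind a count may therefore be fewer than the count itself. Levels of different genes are not compared, because no transcript length was used.

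Setting ossh1 against WT asks whether the cell division genes differ between this mutant and its wild type at flowering. All 4 B-type cyclins fell in ossh1, by 4.77-fold to 11-fold, and CDKB2 fell by 4.22-fold. One A-type cyclin fell by 2.63-fold and PCNA by 1.69-fold, whereas CDKB1 and another A-type cyclin did not pass the test and the remaining A-type cyclin was too low to test. Of the 9 genes tested, 7 fell and 0 rose (edgeR's quasi-likelihood test, Benjamini-Hochberg adjusted p under 0.05). All 9 log2 fold changes were below 0, so none rose at an unadjusted p either, and 0 rose in DESeq2 or limma-voom. Over all 22669 genes tested, 58.3% passed by the same rule, 29.1% lower and 29.2% higher. That balance depends on the scaling: with library totals alone 36.9% were lower and 23.2% higher, and the median log2 fold change of all genes moved from -0.01 to -0.11, while the same number of cell division genes, 7, fell. In 7 of the 10 genes every ossh1 library was below every WT library, a pattern found in 31.3% of the genes tested. A fall of at least 4-fold was called for 5 of the 9, against 1.03% of all genes tested. Of those 5, 4 were counted only because of WT, since they reached the filter of 0.339 CPM in all 3 WT libraries but not in all 3 ossh1 libraries, so the counts over the genes tested are a description.

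Among the B-type cyclins, LOC_Os04g47580 on chromosome 4 had 93, 68 and 82 counts in the WT libraries and 2, 10 and 6 in the ossh1 libraries. Mean levels in WT and ossh1 were 2.52 ± 0.371 and 0.225 ± 0.154 CPM (SD, n = 3), and the log2 fold change was -3.46 ± 0.36 (SE; edgeR adjusted p = 3.81e-11). Every WT library was above every ossh1 library, and the lowest WT count was more than the 3 ossh1 counts together. Without ossh1 replicate 2, the highest of its group, the log2 fold change was -4.05. Without ossh1 replicate 1, the lowest of its group, it was -3.06.

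LOC_Os05g41390, the B-type cyclin on chromosome 5, had 42, 38 and 49 counts in WT and 4, 6 and 2 in ossh1. In WT its mean level was 1.33 ± 0.137 CPM, and in ossh1 it was 0.152 ± 0.0793 CPM (SD, n = 3). The groups did not overlap, and the gene was close to undetected in the mutant. The log2 fold change was -3.12 ± 0.45 (SE; edgeR adjusted p = 9.62e-08), with a 95% interval from -4.02 to -2.22.

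The other two B-type cyclins also fell. LOC_Os01g59120 on chromosome 1 had 101, 96 and 98 counts in WT and 14, 20 and 17 in ossh1, or 3.06 ± 0.0964 and 0.638 ± 0.119 CPM (SD, n = 3). Replicates of both groups lay close together and far apart from the other group. This fall was -2.25 ± 0.26 log2 units (SE; edgeR adjusted p = 4.53e-10). LOC_Os06g51110 on chromosome 6 had 91, 87 and 98 counts in WT and 24, 9 and 12 in ossh1, or 2.86 ± 0.0964 and 0.565 ± 0.308 CPM (SD, n = 3). Its ossh1 libraries were uneven, with replicate 1 highest, but all were below WT. Its change was -2.34 ± 0.29 log2 units (SE; edgeR adjusted p = 3.2e-09). The 95% intervals of all 4 B-type cyclins overlapped, from -4.18 at the lowest bound to -1.74 at the highest, so no order among them is given.

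CDKB2, LOC_Os08g40170 on chromosome 8, had 74, 52 and 69 counts in WT and 0, 24 and 14 in ossh1. A count of 0 in ossh1 replicate 1 allows a level of up to 0.115 CPM, against 0.922 and 0.503 CPM in ossh1 replicates 2 and 3 (counting error only). This bound takes counts as independent, and it is higher if both mates of a pair were counted. The ossh1 libraries thus differed widely, yet all 3 lay below the WT libraries. Mean levels of CDKB2 were 2.02 ± 0.333 CPM in the WT and 0.475 ± 0.462 CPM in the mutant libraries (SD, n = 3). The change was -2.08 ± 0.4 log2 units (SE; edgeR adjusted p = 1.85e-05). The call was lost in DESeq2 (log2 fold change -2.08, adjusted p = 0.149). Without ossh1 replicate 1 the log2 fold change was -1.51, and without ossh1 replicate 2 it was -2.95 (adjusted p = 0.000183 and 7.19e-07, edgeR).

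CDKB1, the other kinase, did not change detectably. LOC_Os01g67160 on chromosome 1 had 211, 208 and 200 counts in WT and 136, 165 and 165 in ossh1. Scaled to library size, the WT mean was 6.42 ± 0.326 CPM and the ossh1 mean 5.82 ± 0.578 CPM (SD, n = 3), and the groups overlapped. The log2 fold change of -0.14 (SE 0.13) did not pass the test (adjusted p = 0.36, edgeR). Its 95% interval ran from -0.4 to 0.12, which leaves out a fall as large as that of CDKB2, whose interval ran from -2.88 to -1.28.

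**Figure D1:**
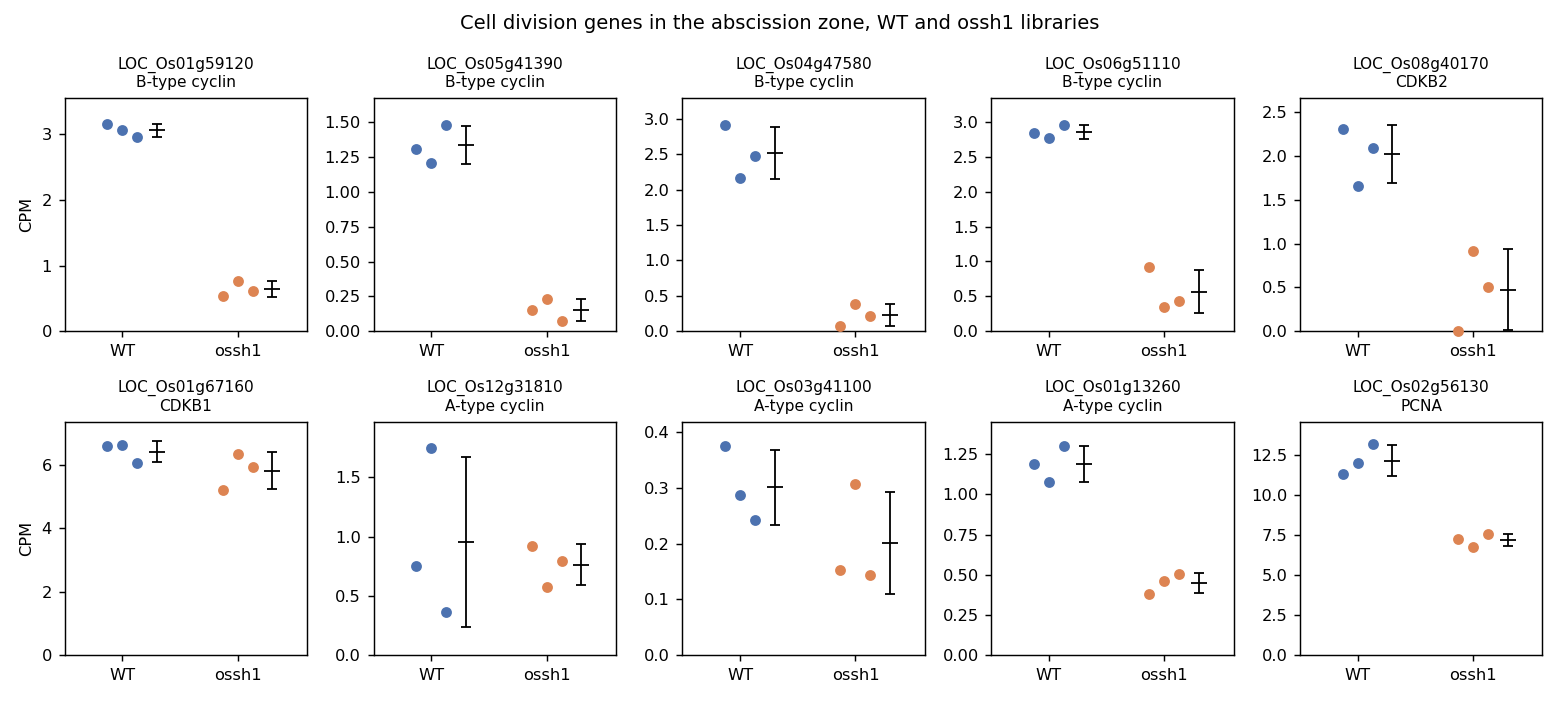
Levels of the 10 cell division genes in the WT and ossh1 libraries, one panel per gene. Each point is 1 library in scaled CPM (vertical axes start at 0 and differ between panels), and the black dash with bars is the mean ± SD of 3 libraries. The 4 B-type cyclins, CDKB2, LOC_Os01g13260 and PCNA do not overlap between groups, while CDKB1, LOC_Os12g31810 and LOC_Os03g41100 do.

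Of the 3 A-type cyclins, 1 fell. LOC_Os01g13260 on chromosome 1 had 38, 34 and 43 counts in WT and 10, 12 and 14 in ossh1, with no overlap. Its mean was 1.19 ± 0.108 CPM in WT against 0.449 ± 0.0614 CPM in the mutant (SD, n = 3), a change of -1.4 ± 0.36 log2 units (SE; edgeR adjusted p = 0.000936). LOC_Os12g31810 on chromosome 12 had 24, 55 and 12 counts in WT and 24, 15 and 22 in ossh1. The WT libraries of this gene enclosed all 3 ossh1 libraries, and its log2 fold change of -0.32 (SE 0.4) did not pass the test (adjusted p = 0.519, edgeR). WT replicate 2 set the sign of that value: without it the log2 fold change was 0.46, also not past the test (adjusted p = 0.415, edgeR). LOC_Os03g41100 on chromosome 3 had 12, 9 and 8 counts in WT and 4, 8 and 4 in ossh1. It stayed below the filter on low counts and overlapped between groups. With no filter the estimate was -0.58 ± 0.67 log2 units (SE; edgeR adjusted p = 0.56), so a change in this gene was not detectable at this depth.

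PCNA, LOC_Os02g56130 on chromosome 2, had 362, 378 and 436 counts in WT and 190, 176 and 210 in ossh1. Means were 12.2 ± 0.943 CPM for WT and 7.19 ± 0.399 CPM for ossh1 (SD, n = 3), with no overlap. The change was -0.76 ± 0.1 log2 units (SE; edgeR adjusted p = 4.56e-08), with a 95% interval from -0.97 to -0.55. That interval lies above those of all 4 B-type cyclins.

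Among all 22669 genes tested, counted from the lowest log2 fold change, the 4 B-type cyclins and CDKB2 had ranks from 51 to 211. LOC_Os01g13260 had rank 543, PCNA 1996, LOC_Os12g31810 5992 and CDKB1 8867. The median log2 fold change of the 9 genes tested was -2.08, beside -0.01 for all genes tested. These placements are a description too, since 3 of the B-type cyclins and CDKB2 passed the filter only through their WT levels. Low counts spread fold changes, so the same was read for the 8643 genes within the range of mean levels that these genes span. There 26.1% fell, and 1.23% fell by at least 4-fold. That range runs from -0.21 to 3.31 log2 CPM, whereas the 4 B-type cyclins and CDKB2 lie from -0.21 to 1.01. The share among genes of those lower levels alone was not read.

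**Figure D2:**
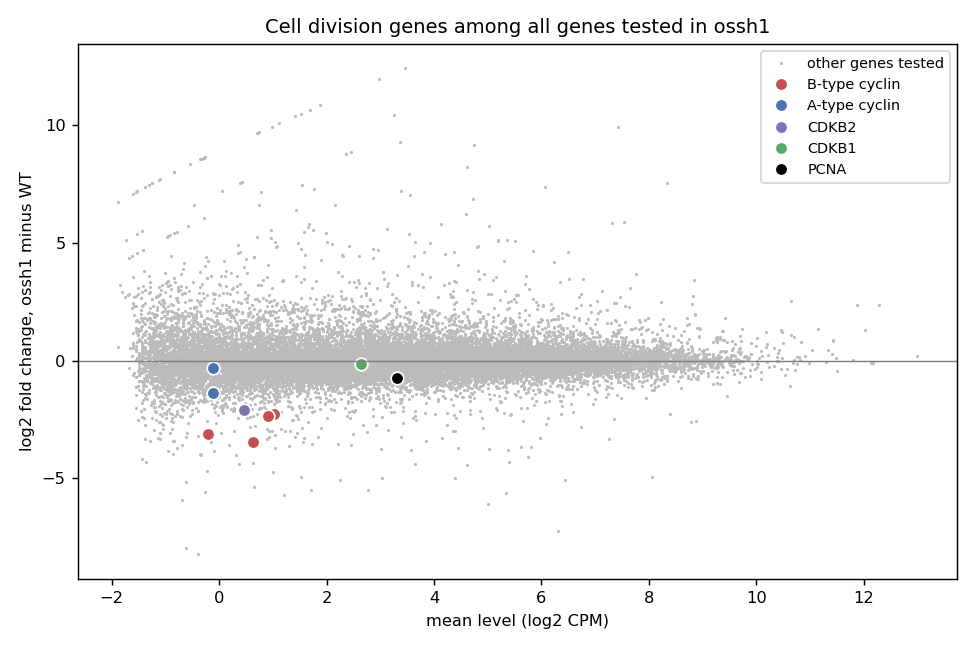
Mean level (horizontal axis, log2 CPM) and log2 fold change of ossh1 against WT (vertical axis) for all 22669 genes tested, each grey point 1 gene, with the 9 cell division genes tested in colour. The 4 B-type cyclins and CDKB2 lie at log2 fold changes from -3.46 to -2.08, below most genes of like level, while CDKB1 lies near 0.

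Ratios within a library do not depend on scaling, and PCNA served as the denominator. The 4 B-type cyclins together had 327, 289 and 327 counts in WT and 44, 45 and 37 in ossh1. Per 100 PCNA counts this was 80.6 ± 8.46 in WT and 22.1 ± 4.08 in ossh1 (SD, n = 3), with no overlap. CDKB2 went from 16.7 ± 3.42 to 6.77 ± 6.82 counts per 100 PCNA counts, with ossh1 replicate 2 just under the lowest WT library. The B-type cyclins and CDKB2 were thus lower even relative to a replication gene that itself fell. The summed A-type cyclins had a ratio of 20.3 ± 5.74 in WT and 19.6 ± 0.52 in ossh1, and the groups overlapped. This sum does not speak for each A-type cyclin, since it includes LOC_Os12g31810, which was uneven in WT (24, 55 and 12 counts). LOC_Os01g13260 changed by -1.4 ± 0.36 log2 units, beside -0.76 ± 0.1 for PCNA (SE, edgeR). Whether LOC_Os01g13260 fell beyond PCNA was not tested. The ratio of CDKB1 was higher in ossh1, at 81.3 ± 11.3 counts per 100 PCNA counts against 53.1 ± 6.44 in WT, with no overlap. CDKB1 itself did not rise (6.42 CPM in WT and 5.82 CPM in ossh1). PCNA fell from 12.2 to 7.19 CPM, so the higher ratio reflects the lower denominator. Each SD is over 3 libraries. With 3 libraries against 3, an exact test that reassigns libraries to groups cannot give a two-sided p under 0.1. No test of a ratio was made.

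**Figure D3:**
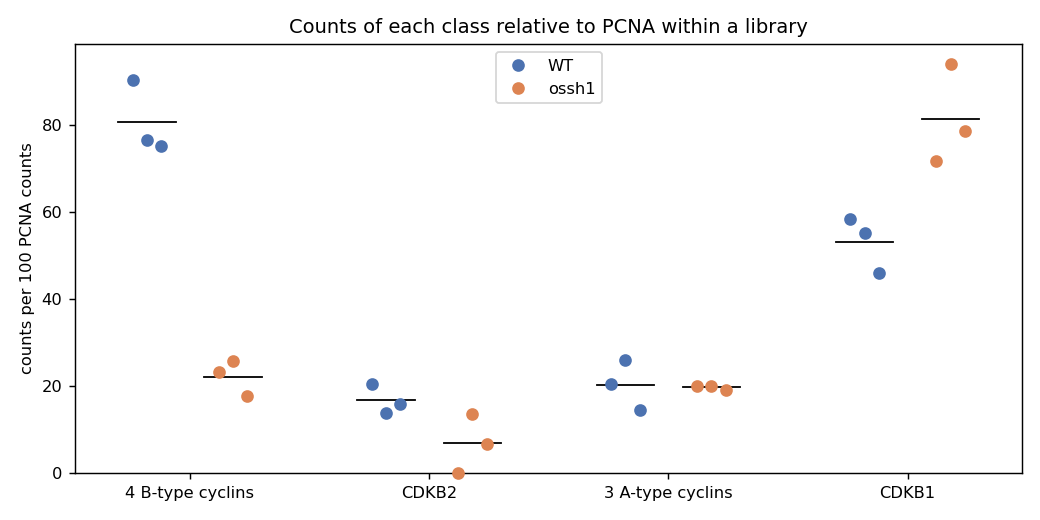
Counts of each class per 100 PCNA counts in the same library (vertical axis, from 0) for WT and ossh1. Points are libraries and black lines are means of 3; the means of WT and ossh1 are 80.6 and 22.1 for the B-type cyclins, 20.3 and 19.6 for the A-type cyclins and 53.1 and 81.3 for CDKB1.

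The genes lie on 8 chromosomes by their locus IDs, and their neighbours were called in both directions. The 5 tested genes on each side of each ID, in ID order, gave 100 neighbours, of which 33 fell, 30 rose and 37 did not pass the test. A fall of at least 2-fold was called for 3 of these 100, against 4.96% of all genes tested. Each of the 4 B-type cyclins, CDKB2 and LOC_Os01g13260 had a lower log2 fold change than all of its 10 neighbours. Their ranks from the lowest log2 fold change were 51 to 543 among all 22669 genes tested. Such genes lie below almost any 10 others, so the outcome was nearly fixed in advance and is only a description. All but LOC_Os01g59120 and LOC_Os01g13260 also passed the filter only through their WT levels. PCNA, which also fell, was not below all of its neighbours, whose lowest log2 fold change was -0.93. The neighbourhoods varied: 8 of 10 neighbours of LOC_Os05g41390 rose (median log2 fold change 0.5), and 7 of 10 neighbours of CDKB1 fell and 0 rose (median -0.19).

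The 2 genes outside the chosen 10 that are named here had the profile most like theirs over the 6 WT and ossh1 libraries, each with a mean Pearson correlation of 0.82 with the 9 genes tested. LOC_Os01g06580 had 42.9, 44.6 and 40.8 CPM in WT and 27.9, 31.5 and 30.5 CPM in ossh1. LOC_Os06g06250 had 6.09, 6.37 and 5.62 CPM in WT and 3.21, 3.69 and 3.6 CPM in ossh1. These libraries form 2 groups of 3, so such a correlation mostly reflects the difference between groups. For the same reason no correlation among the cell division genes themselves is given.

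For oscct against CK the question is the same. CDKB1 and PCNA were both higher in oscct, by 1.67-fold and 1.59-fold, whereas the B-type cyclins, CDKB2 and the A-type cyclins were not listed. Values in this table are estimated counts, and levels are given as CPM of the listed counts, because the table holds only part of each library. The listed counts summed to between 12526167 and 13318430 per library.

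CDKB1 had 68, 68 and 63 counts in CK and 128, 114 and 118 in oscct. This was 5.34 ± 0.294 CPM of listed counts in CK and 8.95 ± 0.588 in oscct (SD, n = 3), with no overlap. The rise was 0.74 ± 0.12 log2 units (SE; edgeR adjusted p = 2.61e-05), with a 95% interval from 0.49 to 1. The kinase that did not pass the test in ossh1 thus had 360 counts over the oscct libraries against 199 over the CK libraries.

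PCNA had 115, 126 and 134 counts in CK and 203, 219 and 222 in oscct, or 10.1 ± 0.757 and 16 ± 0.641 CPM of listed counts (SD, n = 3). Its groups did not overlap either, as was the case, with the mutant higher, for 48.8% of the IDs tested. PCNA rose by 0.67 ± 0.09 log2 units (SE; edgeR adjusted p = 6.09e-06), with a 95% interval from 0.47 to 0.87. Both genes kept about the same proportion to each other, since CDKB1 had 53.4 ± 6.08 counts per 100 PCNA counts in CK and 56.1 ± 6.06 in oscct (SD, n = 3), with overlap. In the WT libraries this ratio was 53.1, from whole-number counts of the other comparison rather than estimated counts, so it is not compared with these.

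These calls have a limit set by the table. It appears to list only rows that differ between the groups, though the rule of listing is not given. Of the 11518 IDs tested, 99.2% passed the test, 48.9% as higher. Among 1205 IDs with means between those of CDKB1 and PCNA, from 93.2 to 170 counts, 717 were higher and 486 lower, and the median log2 fold change of those above 0 was 0.78. The rises of CDKB1 and PCNA were therefore of ordinary size among listed genes. For the 8 genes not listed no value in oscct or CK is known. Of the 2467 genes in the range of levels that 7 of these 8 span in the ossh1 table (the eighth was not tested), 23.6% were listed for oscct, so most genes of such levels were not listed.

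**Figure D4:**
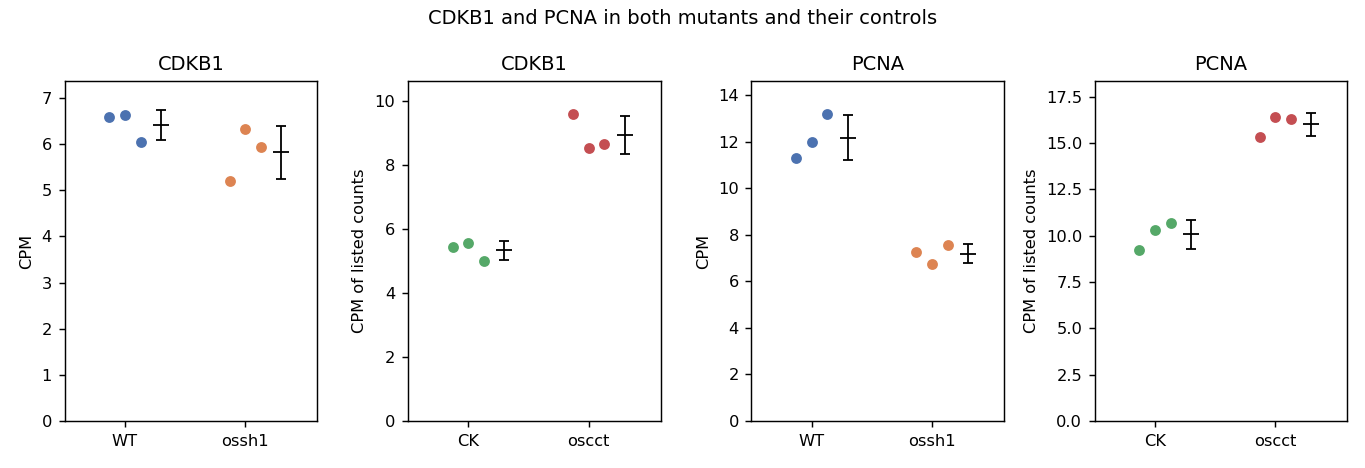
CDKB1 and PCNA in both comparisons. The vertical axes start at 0 and give scaled CPM for WT and ossh1, and CPM of the listed counts for CK and oscct; points are libraries and black dashes with bars are means ± SD of 3. Both genes are higher in all oscct libraries than in any CK library, and PCNA is lower in all ossh1 libraries than in any WT library.

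The difference between the mutants was tested in one model of all 12 libraries, with each mutant set against its own control and no library shared. For PCNA the change in oscct exceeded that in ossh1 by 1.43 log2 units (SE 0.14, 95% interval from 1.14 to 1.72, adjusted p = 1.4e-09, edgeR), a 2.69-fold difference. PCNA was higher than the control in all 3 oscct libraries and lower in all 3 ossh1 libraries. For CDKB1 the difference was 0.88 log2 units (SE 0.17, 95% interval from 0.52 to 1.24, adjusted p = 6.31e-05, edgeR). Its change in ossh1 had not passed its own test. TMM scaling sets the typical gene to no change, whereas 99.2% of the IDs tested in oscct passed. With library totals alone the differences were 1.69 log2 units for PCNA and 1.15 for CDKB1. Of the 11654 IDs tested in this model, 80.3% differed and 40.8% had the higher change in oscct, so such differences were common among listed genes. Both IDs entered this test through the oscct table, which appears to list IDs for a difference between oscct and CK. The p-values of this test therefore have no usual meaning.

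**Figure D5:**
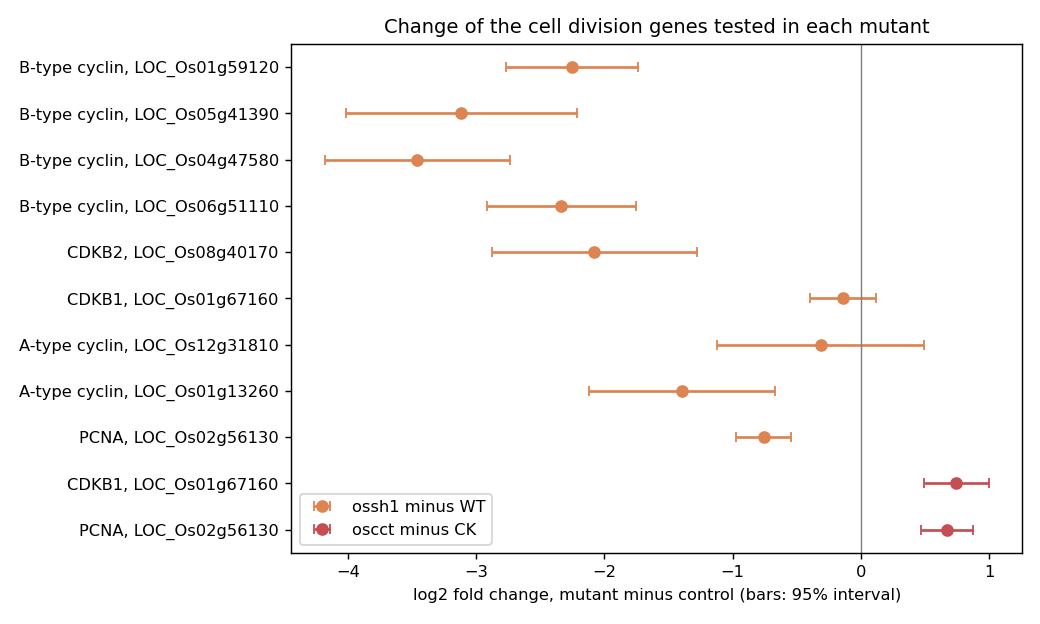
Log2 fold change of mutant against control (horizontal axis) with 95% intervals from edgeR for the 9 cell division genes tested in ossh1 and the 2 tested in oscct. The B-type cyclins lie between -3.46 and -2.25, and CDKB1 and PCNA lie at 0.74 and 0.67 in oscct against -0.14 and -0.76 in ossh1.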

How the data were processed

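For each mutant the authors deposited a table of read counts per locus ID, per the file headers: whole-number counts for ossh1 and, by their fractional values, estimated counts for oscct. Per the submitters' processing notes, the tools named are RSEM 1.3.1, HISAT2 and DESeq2 and the build is IRGSP-1.0, with no role given; the counting of strand and of mates, the assignment of reads shared by similar cyclin genes, and the step that removed rows with small differences from the oscct table, are not given in the sources used here. Rows of one ID (13301 rows, 11688 IDs) were summed and rounded; CDKB1 and PCNA had 1 row each.

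Each table was fitted whole in edgeR 4.0.16 (R 4.3.3) with filterByExpr (a minimum count of 10), TMM, glmQLFit, glmQLFTest and Benjamini-Hochberg adjustment at 0.05, with no replicate block. SEs derive from the quasi-likelihood F. The difference between mutants used IDs in both tables, with scaling factors from each table. Per the labels, each replicate pooled its own 5 plants.

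Genes, classes and tests were chosen with earlier results of these data known. All 10 chosen genes are named, plus the 2 IDs with the highest mean correlation with them among genes of at least 1 log2 CPM. A planned list of other cell division genes, and tissue markers, matched no ID (0 of 55986 were in the reference table) and were not analysed. Neighbours, genes of like level, ratios of summed classes and halved counts were added after seeing the data. Alternatives were RLE, library totals, 2 other filters, the block, DESeq2 1.42.0, limma-voom (limma 3.58.1), an adjusted p of 0.01, centring on the empty range, unsummed rows, IDs listed 1 time and each library left out. Figures used matplotlib 3.10.9.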

Additional observations from a re-analysis of the deposited data

Results flagged for a closer look

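Only CDKB1 and PCNA could be tested for a difference between the mutants, and both passed, as did 80.3% of the 11654 IDs tested. PCNA (LOC_Os02g56130) changed by 1.43 log2 units more in oscct than in ossh1, and CDKB1 (LOC_Os01g67160) by 0.88. Both IDs appear to be in the oscct table because they differed there, so this test has no usual error rate. The labels do not say how line and growing place differ between the comparisons; their part in the result was not tested.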

How the results depend on the processing

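Of 202 values for single cell division genes under the alternatives, 201 kept their direction or stayed uncalled, and kept their side of the threshold; CDKB2 in ossh1 lost its call in DESeq2 (log2 fold change -2.08, adjusted p = 0.149). The number that fell in ossh1 was 5 under a filter of 1 CPM on the mean, which removes LOC_Os05g41390 and LOC_Os01g13260, 6 in DESeq2 and 7 elsewhere. CDKB1 and PCNA were called higher in oscct, and higher in oscct than in ossh1, under every alternative run. Both appear to have been listed for a difference between oscct and CK, and 99.2% of the 11518 IDs tested passed. These alternatives could therefore hardly lose the calls, and they lend them no weight. With halved counts, chosen after seeing the data, 7 genes fell and the log2 fold change of LOC_Os04g47580 was -3.44. In limma-voom the value for CDKB2 moved to -3.24. The replicate number is shared by groups but did not pair the libraries, with correlations of same-numbered deviations from -0.07 to 0.03; with the replicate block 7 genes fell in ossh1, 2 rose in oscct and the difference for PCNA was 1.43. Leaving out each library gave the B-type cyclins over PCNA a change of -1.99 to -1.72 log2 units. In oscct the log2 fold change ran from 0.66 to 0.91 for CDKB1 and from 0.59 to 0.84 for PCNA over the alternatives. The difference between the mutants ran from 0.81 to 1.15 for CDKB1 and from 1.37 to 1.69 for PCNA, highest with library totals. Low counts limit what can be said of LOC_Os03g41100 and LOC_Os12g31810.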

Other observations

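The parity of the deposited counts differed between the tables. In the ossh1 table even values made up 80.4% of values from 2 to 3, 73% from 4 to 9, 67.9% from 10 to 19, 60.7% from 20 to 99 and 50% from 1000 to 9999. In the oscct table, the shares of even values among whole numbers in these classes were 53.9%, 49.3%, 49.7%, 50.1% and 50%. The smallest counts of the B-type cyclins in ossh1, at 2, 4 and 6, are among the values this concerns.

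Between replicates, chi-square over its degrees of freedom was read with counts as deposited. It was 2.29 to 2.32 for pairs of WT libraries and 2.9 to 4.46 for pairs of ossh1 libraries. In the oscct table, without the excess of even values, it was 1.76 to 1.84 for CK pairs and 1.71 to 2.91 for oscct pairs. With the counts halved, the values for WT and ossh1 pairs were 1.15 to 1.16 and 1.48 to 2.33. This statistic scales with the counts, so halving lowers it whether or not both mates were counted. The lower values therefore do not bear on that question. Halving was chosen after seeing the data, and how many counts come from both mates of a pair is not known.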
